A study of Mus musculus with 68 samples.

Results

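Uteri of mice whose Esr1 gene, which encodes estrogen receptor alpha (ERα), was made deletable by Cre in the reproductive tract (ERaUtcKO, genotype Esr1f/f;PgrCre+, on C57Bl6) were compared with uteri of their WT littermates after vehicle alone. The comparison rests on 6 of the 68 arrays of the series: the 3 arrays labelled ERaUtcKO V and the 3 labelled WT (ERaUtcKO) V, all chosen by these labels. All animals of both groups had been ovariectomized, received 100 ul of saline intraperitoneally and gave uterine tissue 24 h later. The vehicle arrays are therefore the arm without added hormone of a study that asked how far uterine responses to the estrogen estradiol (E2) and to insulin-like growth factor 1 (IGF1) need ERα. The ERaUtcKO mouse set holds 29 arrays in 10 groups (vehicle 24 h, E2 2 h and 24 h, and IGF1 2 h and 24 h, in both genotypes). Whether the WT littermates carried floxed Esr1 alleles, and the ages of the mice, are not given in the labels.

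ERα is a nuclear receptor that estradiol binds, and it acts in the uterine epithelium, stroma and muscle, where it turns on genes for growth, secretion and the progesterone receptor and represses others. Ovariectomy removes most circulating estradiol, so the vehicle groups are groups with little ligand for the receptor. The Cre of this line is driven from the progesterone receptor locus, Pgr. It acts in cells that express Pgr or descend from such cells, so cells of the uterus that never express Pgr keep Esr1.

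Values are the deposited log2 intensities of one probe set per gene, so a difference of 1 is 2-fold. A gene was called when its Benjamini-Hochberg adjusted p in limma, two-sided and over all 30142 genes tested, was under 0.05. The residual variance was taken from all 29 arrays. Of the genes tested, 1258 (4.17%) were called under vehicle, 607 higher (2.01%) and 651 lower (2.16%) in ERaUtcKO, with median absolute differences of 0.60 and 0.54. At least 2-fold differences numbered 112 higher and 110 lower, and at least 4-fold 10 and 29. In 599 of the 607 and 635 of the 651 the 3 knockout arrays did not overlap the 3 littermate arrays, which was also so for 7.27% (higher) and 12.8% (lower) of all genes tested. The gene medians were 6.803, 6.798 and 6.713 in the littermates and 6.709 to 6.734 in the knockouts. Centring each array on its median moved the split from 48.3% to 63.7% higher among calls, and quantile normalization to 58.4%. WT littermate array 3 was the nearest littermate array to the knockouts for 323 of the 607 and 334 of the 651 genes, and 2083 genes were called without it, against 627 without littermate array 1 and 703 without knockout array 2. Nothing in the labels says that replicates are separate animals, so the p-values measure only the spread between these samples. In whole tissue, fewer cells of a type and less RNA per cell cannot be told apart.

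Esr1 was measured first, since it checks the labels. It stood at 11.09, 11.10 and 10.86 in the 3 ERaUtcKO arrays and at 12.17, 12.25 and 12.24 in the littermates. All knockout arrays lay below all littermate arrays, and Esr1 fell by 1.21 ± 0.11 (log2 difference ± SE; 2.31-fold, limma adjusted p = 3.66e-07). The difference was -1.23 and -1.38 at 2 h and 24 h of E2 and -1.51 and -1.69 at 2 h and 24 h of IGF1. The probe set reports the gene as a whole and the tissue keeps cells outside the reach of the Cre, and the part of either in the remaining signal was not tested. Esr2, the gene of estrogen receptor beta, was 0.04 higher (limma adjusted p = 0.847) with overlapping arrays. C3, an estrogen-raised complement gene of the uterus, had no probe set with its symbol alone and was not measured.

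Few of the genes that estradiol is known to raise through ERα were called at rest. Pgr, the progesterone receptor gene and an ERα target, stood at 12.76, 12.92 and 13.10 in knockouts and 13.81, 13.90 and 13.94 in littermates. It fell by 0.95 ± 0.17 (limma adjusted p = 0.00179). The groups did not overlap, but this line carries Cre in the Pgr locus, so lower Pgr through Esr1 loss and through the engineered allele cannot be told apart here. In Ex3aERKO mice, a second line whose labels say Esr1-null and name no Cre, Pgr was 0.29 lower under vehicle (limma adjusted p = 0.839), and the difference between the lines missed the threshold (-0.66, limma adjusted p = 0.499). Greb1, a growth-regulating early target, fell by 0.63 ± 0.12 (limma adjusted p = 0.00327), from 6.74, 6.92 and 7.01 to 6.28, 6.31 and 6.2. It was the only one of 22 early E2 targets called (4.55%, beside 4.17% of all genes tested). The list's median of -0.242 stood beside -0.053 for all genes. Of 17 late secretory targets, Prap1 alone was called (5.88%), and it rose. All knockout arrays were below all littermate arrays in 7 of the 17, as in 12.8% of all genes, and the list's median was -0.236. The lactoferrin gene Ltf (-0.25), the mucin gene Muc1 (0.17) and the lipocalin gene Lcn2 (-0.86, limma adjusted p = 0.0925) were not called. Nor were the cell cycle inhibitor gene Cdkn1a (-0.79, limma adjusted p = 0.199) and the oxytocin receptor gene Oxtr (-0.15). Hand2 (0.17), a stromal factor gene listed here among stromal markers and not among E2 targets, was not called either. Prap1 was at 9.38, 9.20 and 10.20 against 7.39, 7.26 and 7.20 (2.31 ± 0.53, limma adjusted p = 0.0132), and its adjusted p was 0.0646 without knockout array 3.

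Coch, which encodes the secreted protein cochlin, rose most, from 9.89, 9.30 and 9.60 in littermates to 12.81, 13.30 and 12.84 in knockouts (3.39 ± 0.27, 10.5-fold, limma adjusted p = 6.59e-08). Plag1, a zinc finger transcription factor gene, was at 10.21, 10.12 and 10.19 against 7.55, 7.67 and 7.87 (2.48 ± 0.13, limma adjusted p = 6.32e-11). Both genes separated the 6 arrays by more than 2 log2 units, with narrow groups. Stc1, encoding the secreted glycoprotein stanniocalcin, was at 12.83, 13.05 and 13.25 against 10.22, 10.57 and 11.14 (2.40 ± 0.40, limma adjusted p = 0.000767). Moxd1, a monooxygenase relative, was at 12.88, 12.78 and 12.50 against 10.16, 9.98 and 10.68 (2.45 ± 0.18, limma adjusted p = 2.57e-08). Inmt, an amine N-methyltransferase gene, was at 13.58, 14.19 and 13.19 against 10.43, 10.37 and 11.60 (2.86 ± 0.50, limma adjusted p = 0.00136). For each of these 3 genes littermate array 3 was the highest littermate, still below every knockout array. The other large rises were Cpxm2 (2.26), Hpgds, a prostaglandin D2 synthase gene (2.08), Lgr5 (2.04), Tnnt2, cardiac troponin T (1.96), the transcription factor gene Tfcp2l1 (1.95), Npnt, the matrix protein nephronectin (1.88), Efhd1 (1.83), the citrate transporter gene Slc13a5 (1.81) and Tgfbi, a TGFβ-induced matrix protein (1.79), with limma adjusted p between 5.39e-08 and 0.00158.

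**Figure D1:**
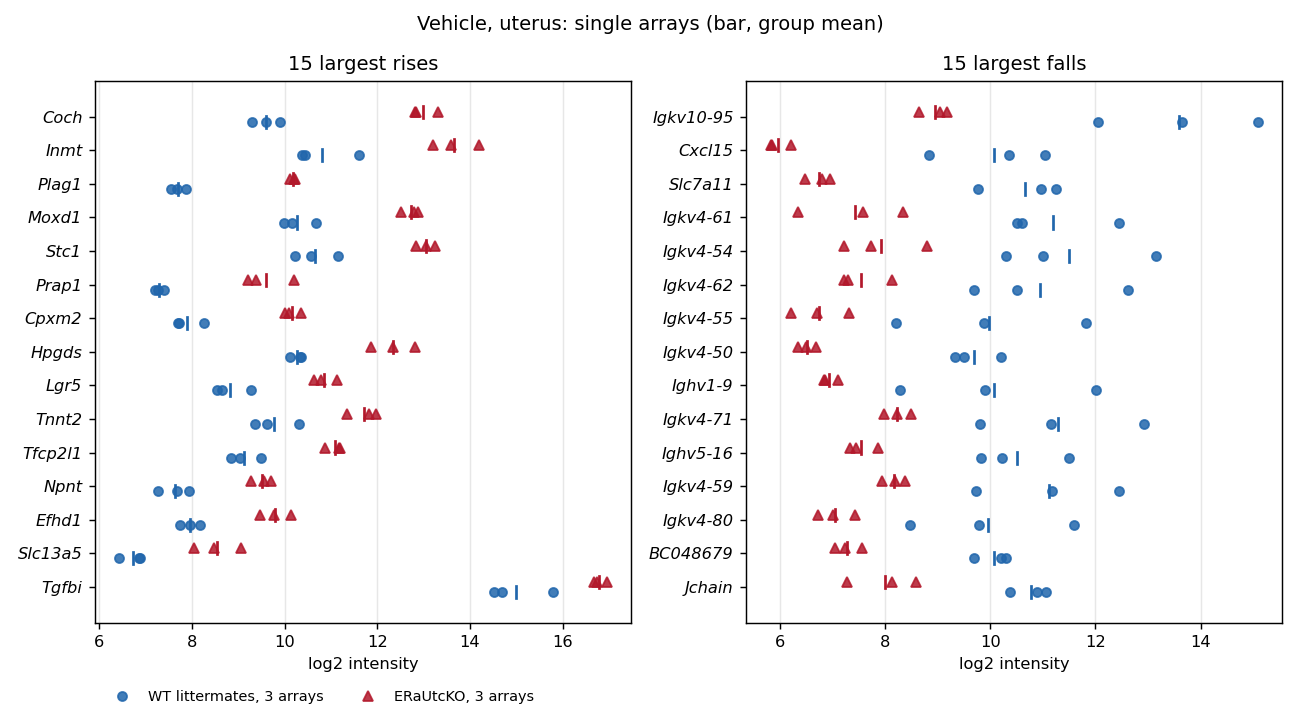
Log2 intensity (horizontal axis) of the 15 named genes that rose most (left) and fell most (right) in ERaUtcKO under vehicle, with 1 triangle per knockout array, 1 circle per littermate array and a bar at each group mean. The naming rule required the 3 knockout and 3 littermate arrays not to overlap, and the immunoglobulin segments show the widest spread within groups.

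The largest falls were of immunoglobulin variable segments, a gland chemokine and an amino acid exchanger. Cxcl15, a chemokine gene of uterine gland cells, fell by 4.11 ± 0.49 (limma adjusted p = 1.66e-05), from 11.04, 10.35 and 8.83 to 6.22, 5.86 and 5.83. Slc7a11, the cystine/glutamate exchanger gene, fell by 3.92 ± 0.34 (limma adjusted p = 2.7e-07), from 9.77, 10.97 and 11.26 to 6.81, 6.96 and 6.48. In both genes the littermates were spread over more than 1 log2 unit while the knockouts lay close together. BC048679 fell by 2.78 ± 0.29 (limma adjusted p = 2.81e-06), with knockouts at 7.57, 7.24 and 7.05 and littermates at 9.70, 10.30 and 10.21. Rxfp1, the receptor gene for relaxin, a hormone that softens and relaxes the uterus, was at 11.38, 10.94 and 11.05 against 13.50, 13.41 and 13.29 and fell by 2.28 ± 0.21 (limma adjusted p = 5.4e-07). Akr1c14, a hydroxysteroid dehydrogenase gene, fell by 2.08 ± 0.21 (limma adjusted p = 1.41e-06), from 9.87, 9.96 and 9.77 to 7.82, 7.70 and 7.85. Rxfp1 and Akr1c14 were the tightest of these falls, with less than 0.5 between arrays of a group.

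Immunoglobulin segments filled 11 of the 15 places among the named falls. Igkv10-95 differed most of all genes, at 8.65, 9.18 and 9.05 in knockouts and 13.64, 12.04 and 15.09 in littermates (-4.63 ± 0.77, limma adjusted p = 0.000823). Over the 314 immunoglobulin and T cell receptor variable segments measured, 20 (6.37%) fell and none rose, where 2.16% of all genes tested fell. The falls were of 15 of 86 kappa segments (17.44%), 2 of 113 heavy segments (1.77%) and 3 of 114 T cell receptor segments (2.63%). The shares of heavy and T cell receptor segments were thus near that of all genes. The joining chain gene Jchain, made by antibody-secreting cells, fell by 2.77 ± 0.63 (limma adjusted p = 0.012) and was at 8.59, 8.13 and 7.28 against 10.89, 10.37 and 11.06. Jchain was the 1 called member of 10 B and plasma cell markers, whose median was 0.038. The mean of 5 of those 10 was at or under 6.04, the 95th percentile of the control probe sets for random sequence. The arrays' medians over these markers were 5.97 to 6.10 in knockouts and 5.84 to 6.02 in littermates. Leaving out 1 array ended the call of Jchain (limma adjusted p = 0.0609 without knockout array 3 and 0.0517 without littermate array 1), of Ighv1-9 (0.0922 without littermate array 2), of Ighv5-16 (0.0922 without littermate array 1) and of 6 kappa 4 segments, for which limma adjusted p reached 0.177 in Igkv4-59 without littermate array 1. Segments of 1 family are near-identical copies, so which of them carried the signal is uncertain.

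**Figure D2:**
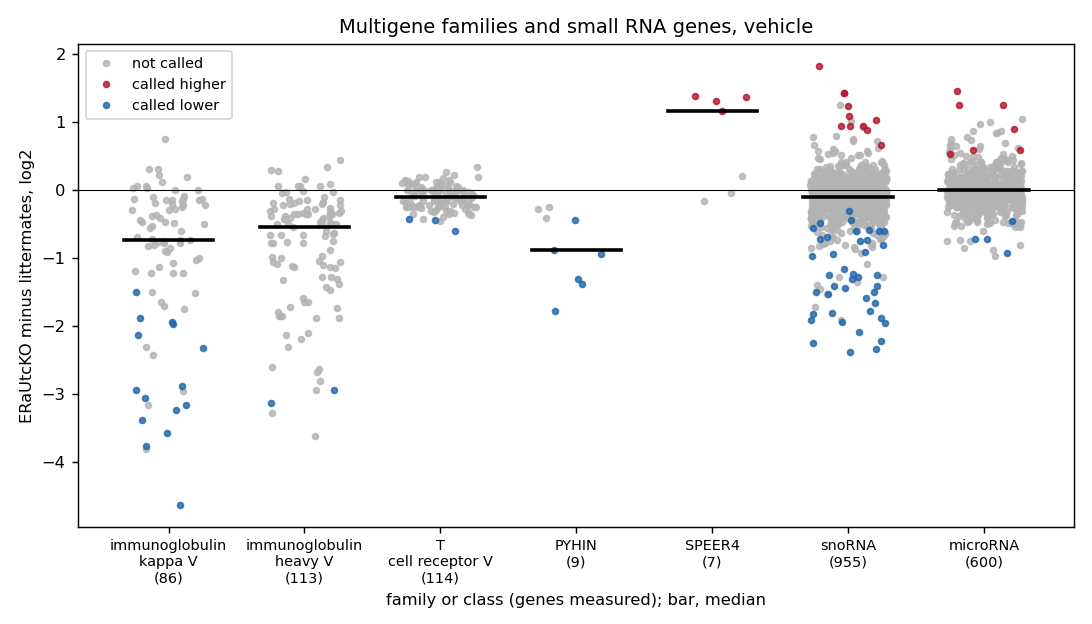
ERaUtcKO minus littermates (log2, vertical axis) for each measured gene of the multigene families and small RNA gene classes named on the horizontal axis, with called genes coloured and a bar at each median. Kappa segments lie mostly below 0 with a median of -0.739, PYHIN genes have a median of -0.88, and the SPEER4 genes split between about 0 and above 1.

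The IGF axis, the other signal of the study, gave 4 rises and no fall among 18 measured genes (22.22% called, median 0.054). The share called was 18.52% in the growth factor list described below and 4.17% over all genes tested. Igf1r, the receptor of IGF1, rose by 0.92 ± 0.14 (limma adjusted p = 0.000316), with 12.66, 12.60 and 12.39 in knockouts and 11.54, 11.41 and 11.94 in littermates. Igf2, the second ligand, rose by 1.27 ± 0.12 (limma adjusted p = 5.24e-07), from 7.27, 7.28 and 6.95 to 8.32, 8.73 and 8.26. Both were separated between the groups. Igfbp3, which binds IGFs in extracellular fluid, rose by 0.95 ± 0.22 (limma adjusted p = 0.0116), and its adjusted p was 0.0688 without littermate array 1. Stc1 was the remaining rise of the list. Igf1 itself, which estradiol raises in stroma, was lower in every knockout array (10.30, 10.35 and 9.95 against 10.78, 10.76 and 10.60) and missed the threshold (-0.51, limma adjusted p = 0.176). Irs2, an adaptor of the IGF1 and insulin receptors, was not called either (-0.17, limma adjusted p = 0.733). Among 27 growth factor ligands and receptors 5 rose, including Fgf7, a stromal factor that acts on epithelium (0.82), Erbb2 (0.77), which encodes a partner of the EGF receptor, and Fgfr2, the epithelial receptor of FGF7 (0.66). Adjusted p of Fgf7 reached 0.0997 and that of Fgfr2 0.0517, each without littermate array 1, and Fgf7 was also lost without knockout array 3 (0.0798) and littermate array 2 (0.0586).

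Among 20 progesterone targets 3 fell and 2 rose (25% called, beside 4.17% of all genes tested), with a median of 0.034. The 3 that fell belong to hedgehog signalling, which passes from uterine epithelium to stroma and is turned on by progesterone, and they were grouped after their values had been seen. Gli1, a transcription factor gene that hedgehog induces, fell by 1.25 ± 0.25 (limma adjusted p = 0.00365), from 9.12, 9.17 and 9.33 to 7.68, 7.93 and 8.26. The receptor gene Ptch1 fell by 1.09 ± 0.28 (limma adjusted p = 0.0264), with knockouts at 11, 11.17 and 11.08 and littermates at 12.12, 12.23 and 12.15, and the ligand gene Ihh fell by 0.46 ± 0.11 (limma adjusted p = 0.0221). In all 3 genes the groups did not overlap. The calls of Ptch1 and Ihh were fragile: adjusted p of Ptch1 was between 0.0628 and 0.0949 without any one of knockout arrays 1, 2 and 3 and littermate arrays 1 and 2, and that of Ihh was 0.0542, 0.0943 and 0.149 without knockout arrays 2 and 3 and littermate array 2. The 2 rises were of Cyp26a1 (0.69), a retinoic acid oxidase gene, and Fgf18 (0.58), a fibroblast growth factor gene. Cyp26a1 was lost without knockout array 2 or 3 or littermate array 1 or 2 (limma adjusted p up to 0.0852), and Fgf18 without knockout array 1 or 3 or littermate array 1 (up to 0.0971).

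Genes that make, carry or destroy retinoic acid had the highest share called of the 48 gene lists described, 8 of 16 (50.0%), in both directions. Aldh1a3, which makes retinoic acid from retinal, rose by 1.40 ± 0.13 (limma adjusted p = 3.66e-07), from 7.04, 7.26 and 7.57 to 8.93, 8.57 and 8.59. Aldh1a1, a second enzyme of that step and here a gland cell marker, fell by 1.97 ± 0.30 (limma adjusted p = 0.000355), from 9.77, 10.59 and 10.64 to 8.22, 8.45 and 8.41. Rdh10, the retinol dehydrogenase gene of the step before, fell by 1.19 ± 0.16 (limma adjusted p = 6.61e-05), with 9.22, 9.04 and 9.39 against 10.65, 10.47 and 10.09. All 3 were separated between groups and called without any 1 of the 6 arrays. The list also held rises of Cyp26a1 and Stra6, the retinol uptake receptor gene (0.54), and falls of Rarres2 (-0.82) and Aldh1a2 (-0.71). Those of Stra6, Rarres2 and Aldh1a2 were lost without most single arrays, with limma adjusted p up to 0.211 (Stra6, without knockout array 2), 0.15 (Rarres2, without knockout array 1) and 0.13 (Aldh1a2, without knockout array 1). Among 14 steroid enzyme genes, Cyp1b1, which hydroxylates estradiol, rose by 1.47 ± 0.27 (limma adjusted p = 0.00174) and Akr1c14 fell.

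Of 33 WNT pathway genes, 3 rose and 4 fell (21.21% called, beside 4.17% of all genes tested). The share called was 11.11% of TGFβ and BMP genes, 6.67% of collagen and matrix genes and 16.67% of matrix enzyme genes. Lgr5, a receptor for the WNT-enhancing R-spondins, rose by 2.04 ± 0.26 (limma adjusted p = 4.24e-05), with knockouts at 10.64, 10.79 and 11.12 and littermates at 8.54, 8.64 and 9.26. Genes of secreted WNT inhibitors went both ways: Sfrp4 (-1.24, limma adjusted p = 9.3e-05), Wif1 (-0.89) and Frzb (-0.73) fell, and Sfrp1 rose (0.90). Without littermate array 2, adjusted p was 0.0607 for Wif1 and 0.0502 for Frzb, and Sfrp1 was lost without any 1 array other than littermate array 3 (up to 0.127). In the TGFβ and BMP list 3 of 27 rose: Tgfbi (16.74, 16.95 and 16.68 against 14.52, 14.68 and 15.79), Bmp5 (0.85, limma adjusted p = 0.00172) and Smad6 (0.31, lost without knockout array 1 or 3 or littermate array 2, up to 0.0952). Of 30 collagen and matrix genes, periostin (Postn, 1.27 ± 0.28) and biglycan (Bgn, 1.19 ± 0.19) rose. Postn was at 13.20, 13.19 and 13.15 in knockouts and at 11.14, 12.30 and 12.28 in littermates, and without littermate array 1, the lowest, its adjusted p was 0.0888. Of 24 matrix enzyme genes 4 fell and none rose, with Plat, tissue plasminogen activator, furthest (-1.48 ± 0.31, limma adjusted p = 0.00689). Mmp11 (-0.78) and Lox (-0.70) were lost without single arrays (limma adjusted p up to 0.191 without knockout array 3 and 0.232 without knockout array 2).

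**Figure D3:**
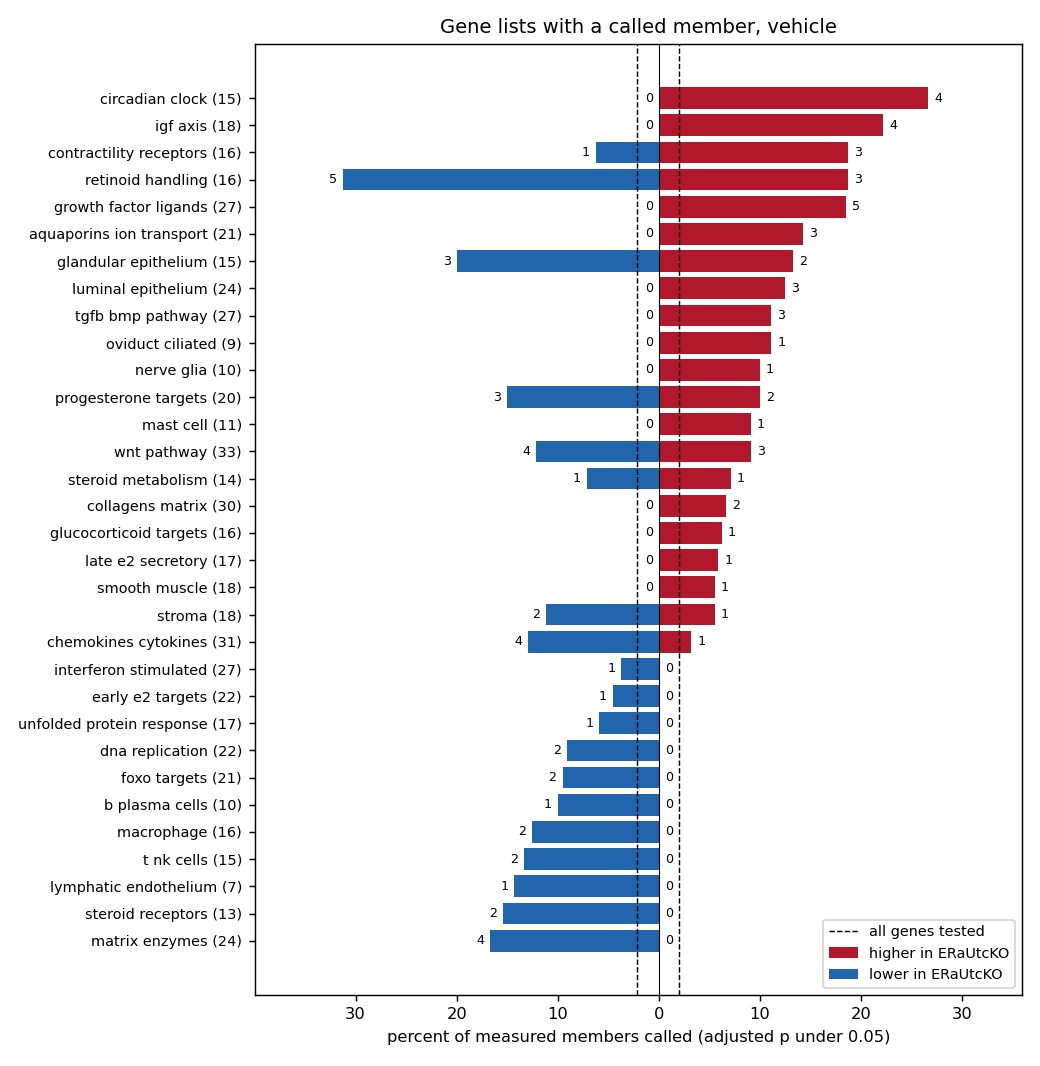
Percent of the measured members of each gene list (number in brackets) called higher (right) or lower (left) in ERaUtcKO under vehicle, with the number called at each bar and dashed lines at 2.01% and 2.16%, the shares of all genes tested. Lists of which no member was called are left out, and 8 of 16 retinoid genes were called.

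A minority of the markers of each cell type was called. The share was 12.5% of luminal, 33.33% of gland and 16.67% of stromal markers. It was 14.29% of lymphatic endothelial and 5.56% of smooth muscle markers, beside 4.17% of all genes tested and 5.06% of protein-coding genes. Of 24 luminal epithelial markers 3 rose (median 0.239): Calb1, a calcium-binding protein gene (0.99), Spint1, a protease inhibitor gene (0.65), and Wnt11 (0.49). Each of these calls was lost without single arrays, with limma adjusted p up to 0.179, 0.203 and 0.114, all without knockout array 3. Of 15 gland markers 5 were called: Cxcl15, Aldh1a1 and Wfdc15b (-2.24 ± 0.40, limma adjusted p = 0.00149) fell, while Prap1 and Lgr5 rose. Foxa2, the transcription factor that defines uterine glands, was 0.28 lower (limma adjusted p = 0.101), at 5.58, 5.79 and 5.83 against 6.0, 6.13 and 5.91. The median difference of the gland list was -0.069, beside -0.053 for all genes, and 6 of its 15 markers lay at or under 6.04. Its median level was 6.0 to 6.22 in knockout arrays and 6.64 to 7.03 in littermate arrays. Its mean level overlapped between the groups, at 7.04, 7.22 and 7.34 in knockouts and 7.46, 7.53 and 7.19 in littermates. The part of gland content in the falls of gland markers was not tested. Of 18 stromal markers 1 rose, Pi16 (0.66), and 2 fell, Twist2 (-1.03) and Aldh1a2. Adjusted p of Twist2 reached 0.0995 without knockout array 2. The median stromal level was 9.71 to 9.94 in knockouts and 10.03 to 10.51 in littermates. The luminal and smooth muscle medians lay the other way, at 8.38 to 8.84 against 8.10 to 8.37 and at 11.79 to 11.98 against 11.50 to 11.67. Of 7 lymphatic endothelial markers Mmrn1, a vessel-wall protein gene, fell (-0.50), and the list's median level was 8.34 to 8.71 in knockouts and 8.95 to 9.23 in littermates. The call of Mmrn1 was lost without knockout array 2 or 3 or littermate array 1 or 3 (limma adjusted p up to 0.135). Of 18 smooth muscle markers the potassium channel subunit gene Kcnmb1 alone was called (0.67, limma adjusted p = 0.00369).

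Of 16 contractility receptor and channel genes 4 were called (25%), and of 21 water and ion transport genes 3 (14.29%). Over all genes tested the share was 4.17%. Ptger2, a receptor of prostaglandin E2, rose by 1.17 ± 0.14 (limma adjusted p = 1.5e-05), from 7.02, 7.07 and 6.84 to 7.92, 8.09 and 8.42, and the vasopressin receptor gene Avpr1a rose by 0.79 (limma adjusted p = 0.00647). With Slc8a1 (0.43) they made the 3 rises of the contractility list, in which Rxfp1 was the 1 fall. Slc8a1 lost its call without any 1 of the 6 arrays (limma adjusted p up to 0.155). Of the 4 relaxin family receptor genes, Rxfp2 also fell (-0.60, limma adjusted p = 0.0198; up to 0.102 without knockout array 2 or 3 or littermate array 1 or 2), and Rxfp3 (-0.07) and Rxfp4 (0.00) were not called. The 3 transport genes all rose: Clca1, which encodes a secreted regulator of chloride channels (1.31, limma adjusted p = 0.0202), Scnn1a, a subunit of the epithelial sodium channel (0.74, limma adjusted p = 0.00586), and Atp1b1, a subunit of the sodium pump (0.62, limma adjusted p = 0.0339). Scnn1a was called without any 1 array, while Clca1 was lost without knockout array 1 or 3 or littermate array 1 or 2 (limma adjusted p up to 0.103) and Atp1b1 without any array but littermate array 3 (up to 0.179). Of 15 clock genes 4 rose and none fell (26.67% called): Nr1d1, which represses Bmal1 (1.11, limma adjusted p = 0.0276), Per1 (0.92), Hlf (0.84, limma adjusted p = 0.00339) and Cry2 (0.54). The call of Hlf held without any 1 array, while Nr1d1 and Per1 had limma adjusted p of 0.134 and 0.13 without knockout array 2 and were also lost without littermate arrays 1 and 2. The labels give no time of day for the tissue collection.

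Among immune genes other than immunoglobulins, calls were few in number, with shares that varied by list. The share called was 16.13% of chemokine and cytokine genes, 12.5% of macrophage markers and 13.33% of T and natural killer cell markers. Of all genes tested it was 4.17%. Of 31 chemokine and cytokine genes 1 rose, Cx3cl1 (0.53), and 4 fell, led by Cxcl15 and by Cxcl14, an epithelial chemokine gene. Cxcl14 was at 6.47, 6.36 and 6.92 in knockouts and at 8.23, 8.96 and 9.55 in littermates (-2.33 ± 0.28, limma adjusted p = 1.39e-05). Ccl28, a mucosal chemokine gene that draws antibody-secreting cells, fell by 1.29 ± 0.25 (limma adjusted p = 0.00288), from 7.96, 8.32 and 8.24 to 7.07, 7.13 and 6.44. Of 16 macrophage markers Ms4a7 (-1.65 ± 0.28, limma adjusted p = 0.00107) and Aif1 (-0.68, limma adjusted p = 0.00959) fell. The median macrophage level was 7.30 to 7.81 in knockout arrays and 7.82 to 8.08 in littermate arrays. Klrb1c (-0.60) and Il2rb (-0.41) fell among 15 T and natural killer cell markers. Single arrays ended the calls of Aif1 (limma adjusted p up to 0.0681 without littermate array 2), Cx3cl1 (0.0995 without knockout array 2), Klrb1c (0.0827 without littermate array 2) and Il2rb (up to 0.2 without littermate array 1). None of the 13 antigen presentation, 9 eosinophil, 13 neutrophil or 14 complement genes was called by limma, and 2, 1, 1 and 2 of them had an unadjusted p under 0.05.

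No mitosis gene was called, and 9.09% of replication genes were, beside 4.17% of all genes tested. Of the 23 mitosis genes measured, 14 had all knockout arrays below all littermate arrays (12.8% of all genes did), with a median of -0.23, and limma gave 1 of the 23 an unadjusted p under 0.05. Mki67 was at 6.70, 6.99 and 6.26 against 7.81, 7.63 and 7.62 (-1.04, limma adjusted p = 0.256) and Top2a at 7.05, 7.44 and 6.86 against 7.97, 8.28 and 7.87 (-0.93, limma adjusted p = 0.334). In both genes the groups were separated, and the variance pooled over the 29 arrays gave standard errors of 0.48 and 0.50. Of 22 DNA replication genes Pcna (-0.67, limma adjusted p = 0.0106) and Gins1 (-0.66, limma adjusted p = 0.0367) fell. Adjusted p was 0.0827 for Pcna without knockout array 2, and up to 0.222 for Gins1, without littermate array 2.

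Interferon-inducible PYHIN genes, which encode DNA-binding proteins of innate immunity clustered on chromosome 1, were described after their values had been seen. In this family 6 of 9 measured members fell, with a median of -0.88, while 1 of 27 members of the general interferon-stimulated list, Bst2, was called (-0.71). Ifi204 was at 9.32, 9.14 and 9.05 in knockouts and at 11.21, 11.14 and 10.55 in littermates (-1.79 ± 0.26, limma adjusted p = 0.000144). Ifi211 was at 9.40, 9.13 and 9.53 against 11.04, 10.81 and 10.34 (-1.38 ± 0.23, limma adjusted p = 0.000899), and Ifi207 at 9.70, 9.09 and 9.28 against 11.13, 10.84 and 10.03 (-1.31 ± 0.32, limma adjusted p = 0.0192). Littermate array 3 was the lowest littermate in all 3 genes. Mndal (-0.95) and Aim2 (-0.44) also fell. Ifi207 was lost without knockout array 2 or 3 or littermate array 1 or 2 (limma adjusted p up to 0.122), and Aim2 without the same arrays (up to 0.15). Bst2 was lost without any 1 array (up to 0.13). The members are close copies of each other, so signal can be shared between their probe sets. The Bcl2a1 genes, copies of an anti-apoptotic gene of immune cells, fell in 3 of 3 measured (-0.80 to -1.23). Without single arrays limma adjusted p reached 0.153 for Bcl2a1a (littermate array 2), 0.0798 for Bcl2a1d and 0.0561 for Bcl2a1c (both knockout array 1).

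Promoters of these genes were searched for the interferon response element core, GAAA and GAAA with 2 bases of any kind between them, on both strands and in the 250 bases before to 50 after each start site (RefSeq, GRCm38.p6). The core was present in 7 of 49 genes that fell at least 2-fold (14.3%), 27 of all 406 that fell (6.65%), 16 of 423 that rose (3.78%) and 692 of 17970 tested genes with a promoter (3.85%). The 7 were 9030622O22Rik, Akr1c14, Cxcl14, Esr1, Ifi207, Ifi211 and Vldlr. Esr1 is itself the gene targeted in these mice, and Ifi204, the PYHIN gene that fell furthest, was not among the 7. A match is a description of the letters and shows no binding. The full estrogen response element, GGTCA and TGACC with 3 bases of any kind between them, was present in none of the 423 and none of the 406, and in 11 of the 17970 (0.0612%). The 250 bases before the start site are shown for 3 of the 7 genes, with the core in capitals. The core begins 41 bases before the start site in Ifi207, 37 in Ifi211 and 172 in Cxcl14. Ifi207 and Ifi211 belong to the same family of close copies and hold it at nearly the same place, so they are not separate instances among the 7.
Ifi207, chr1:173741810-173742059, minus strand: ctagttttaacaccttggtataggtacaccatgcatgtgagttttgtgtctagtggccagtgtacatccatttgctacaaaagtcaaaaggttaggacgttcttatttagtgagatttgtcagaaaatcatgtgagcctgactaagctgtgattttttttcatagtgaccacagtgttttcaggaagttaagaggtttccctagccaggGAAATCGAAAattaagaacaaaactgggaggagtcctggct
Ifi211, chr1:173913047-173913296, minus strand: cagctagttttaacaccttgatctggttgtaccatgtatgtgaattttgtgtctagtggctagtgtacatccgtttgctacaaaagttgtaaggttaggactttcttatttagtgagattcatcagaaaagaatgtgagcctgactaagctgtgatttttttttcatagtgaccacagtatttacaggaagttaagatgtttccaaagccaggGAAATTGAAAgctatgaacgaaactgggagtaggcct
Cxcl14, chr13:56296552-56296801, minus strand: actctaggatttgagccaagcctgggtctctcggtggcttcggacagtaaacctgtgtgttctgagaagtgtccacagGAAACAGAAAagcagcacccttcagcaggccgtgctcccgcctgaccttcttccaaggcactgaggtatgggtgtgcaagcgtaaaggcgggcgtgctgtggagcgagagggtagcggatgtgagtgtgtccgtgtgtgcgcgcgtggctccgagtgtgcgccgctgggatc
Ifi207 and Ifi211, which fell in both ERaUtcKO and Ex3aERKO, hold the core near the start site, and Cxcl14 holds it further upstream.

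The same genotype contrast was available under the 4 hormone treatments, on other arrays of the same mouse set. Called genes numbered 8166 (27.1%) after 2 h of E2, 13998 (46.4%) after 24 h of E2, 1862 (6.18%) after 2 h of IGF1 and 1016 (3.37%) after 24 h of IGF1. Of the 607 genes that rose under vehicle, 479 (78.9%), 495 (81.5%), 226 (37.2%) and 187 (30.8%) were called higher in these 4 treatments in that order, where 13.6%, 24%, 2.57% and 1.35% of all genes were. Of the 651 that fell, 293 (45.0%), 349 (53.6%), 252 (38.7%) and 200 (30.7%) were called lower, where 13.5%, 22.4%, 3.6% and 2.02% of all genes were. Opposite calls were made for 26, 28, 1 and 1 of the 607 and for 47, 69, 1 and 1 of the 651. In all 4 treatments the same call was made for 105 of the 607 (17.3%) and 77 of the 651 (11.8%), 182 genes together (14.5% of those called). Of all genes tested, 0.4% were called higher in all 4 treatments and 0.31% lower. Most genes called on both sides had the same direction as under vehicle.

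Among the 182, Coch differed by 3.89, 5.20, 3.23 and 1.80 at 2 h and 24 h of E2 and 2 h and 24 h of IGF1, and Lgr5 by 2.72, 4.48, 2.23 and 2.42. Moxd1 differed by 2.61, 4.12, 2.44 and 3.14 and Plag1 by 3.23, 3.47, 1.59 and 1.76. The vehicle rise of these genes was seen on 5 sets of arrays. On the lower side, Cxcl15 differed by -3.19, -4.27, -5.31 and -5.27, Slc7a11 by -4.64, -4.73, -1.45 and -2.69, and Rxfp1 by -2.61, -2.59, -3.09 and -2.50. Ccnd2, a cyclin gene (1.55 under vehicle), and Lifr, the receptor of leukemia inhibitory factor (1.33), rose in all 5 treatments. Dio2, which activates thyroid hormone (-1.93), Msx2, a homeobox factor gene (-1.58), and Egfl6 (-2.10) fell in all 5. Igf1r was higher by 1.05, 2.32, 0.93 and 0.90, and Igf2 by 1.18, 1.31, 1.43 and 1.19, called each time. By contrast, Hpgds was -0.64 at 24 h of IGF1 and was not called there. Ifi207, Klrb1c and Ccdc170 were among the 177 of the 651 falls that were not called lower under any hormone treatment. Of the 607 rises, 43 were not called higher under any of them. Both counts include genes called in the opposite direction under a hormone treatment.

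**Figure D4:**
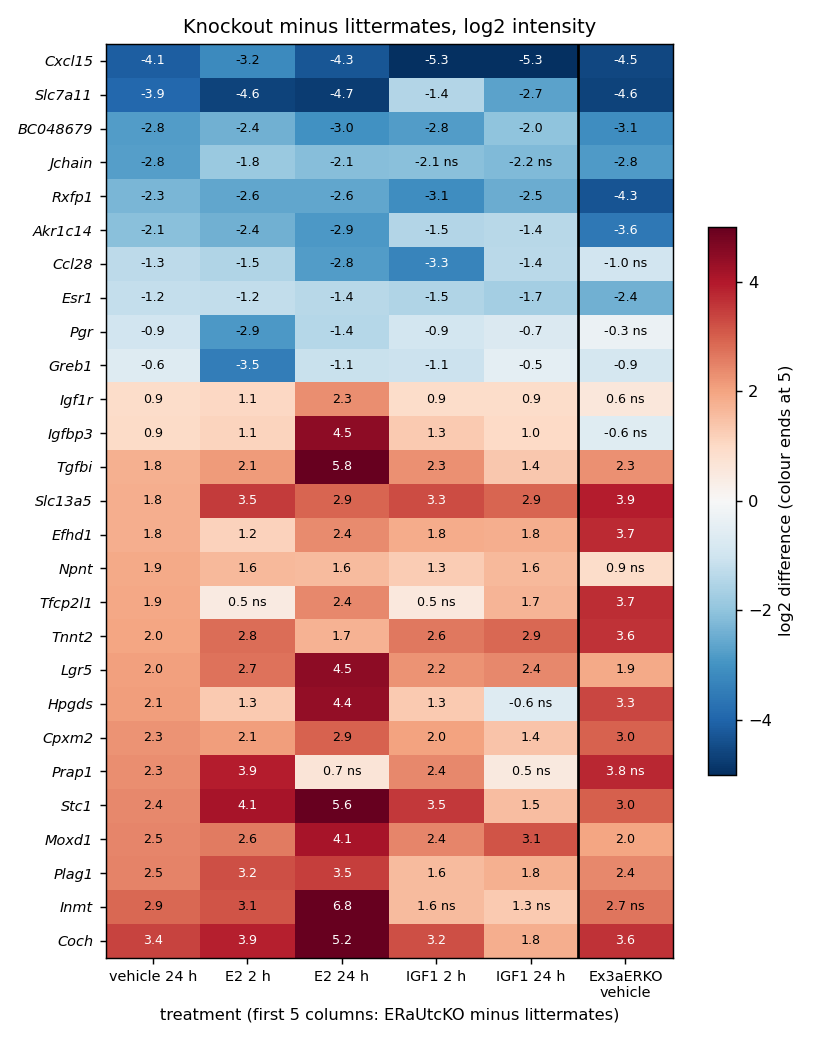
Knockout minus littermates (log2; colour and printed value) for the named rises and falls other than immunoglobulin segments, with Esr1, Pgr, Greb1, Igf1r, Igfbp3, Ccl28, Rxfp1 and Akr1c14, under the 5 treatments of the ERaUtcKO set and under vehicle in Ex3aERKO (last column). The mark ns stands for a limma adjusted p of 0.05 or more, and signs seldom change along a line.

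Ex3aERKO mice are labelled Esr1-null on C57Bl6, with no restriction to a tissue named. Under vehicle 891 genes (2.96%) were called in their 2 arrays against 2 littermate arrays, and an array had been excluded from each of these groups as an outlier, per the series' design text. Of the 607 genes that rose in ERaUtcKO, 524 (86.3%) were also higher in Ex3aERKO, where 53.3% of all genes were. Of the 607, 203 (33.4%) were called higher there, where 1.56% of all genes were. Of the 651 that fell, 540 (82.9%) were lower, where 46.7% of all genes were, and 158 (24.3%) were called lower, where 1.4% were. None was called in the opposite direction. Coch (3.60), Plag1 (2.40), Moxd1 (1.99), Stc1 (2.97), Cpxm2 (2.95) and Lgr5 (1.88) were called higher in Ex3aERKO, and Cxcl15 (-4.55), Slc7a11 (-4.62), Jchain (-2.84), Ifi204 (-2.45), Ifi211 (-2.06) and Ifi207 (-1.66) were called lower. Of the 182 genes called in all 5 ERaUtcKO treatments, 103 were called the same way in Ex3aERKO. The Ex3aERKO count was between 165 and 329 when Ex3aERKO array 2 or either littermate array was left out, with the smallest count without Ex3aERKO array 2 and 240 without littermate array 3.

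The difference between the 2 lines was tested itself and was past the threshold for 56 genes (0.186%), 32 with a higher value in ERaUtcKO (0.106%) and 24 with a lower one (0.0796%). Of the 56, 17 were called in ERaUtcKO, 46 in Ex3aERKO and 11 in both. Esr1 was 2.39 lower in Ex3aERKO and 1.21 lower in ERaUtcKO, a difference of 1.19 ± 0.21 (limma adjusted p = 0.00781). Rxfp1 followed the same order with -4.33 against -2.28 (2.05 ± 0.33, limma adjusted p = 0.00369), as did Akr1c14 with -3.57 against -2.08 (1.49 ± 0.34, limma adjusted p = 0.0449) and Trpc4, a calcium channel gene, with -2.07 against -0.99. Each of these genes fell in both lines and fell further in Ex3aERKO. Pllp rose in both, by 2.60 and 1.10. Cxcl12, a stromal chemokine gene, was 1.52 lower in Ex3aERKO and 0.03 higher in ERaUtcKO (difference 1.55 ± 0.33, limma adjusted p = 0.0383), and Nudt4 was 2.54 and 0.50 higher. The count of 56 was 5 without Ex3aERKO array 2, 10 and 13 without either Ex3aERKO littermate array, 14 to 21 without knockout array 1 or 2 or littermate array 1 or 2 of the ERaUtcKO set, and 167 without its littermate array 3.

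**Figure D5:**
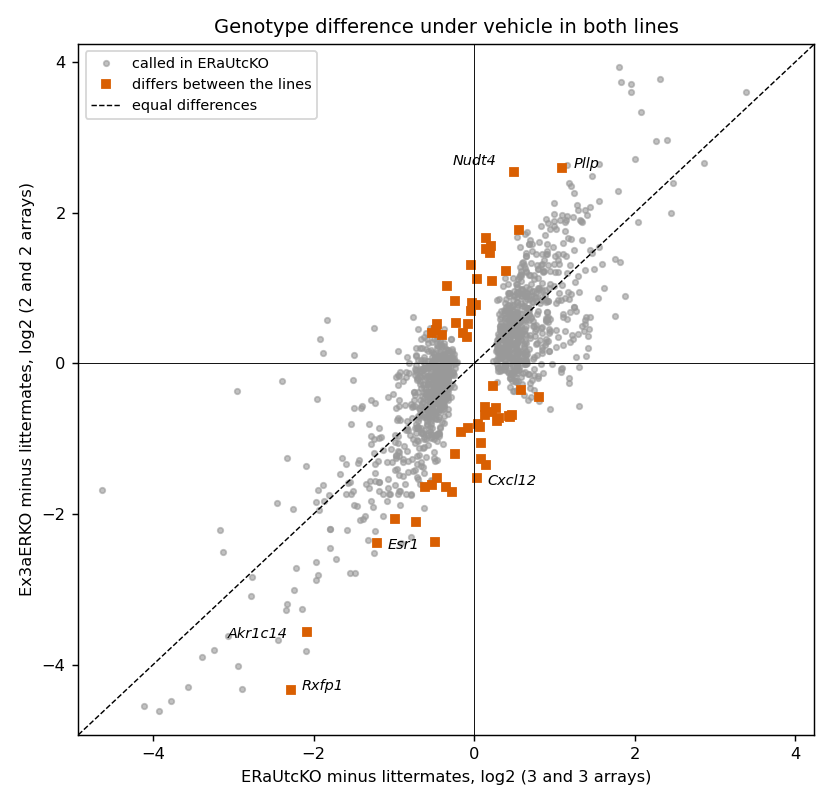
Genotype difference under vehicle in Ex3aERKO (vertical, log2, 2 and 2 arrays) against ERaUtcKO (horizontal, log2, 3 and 3 arrays), with 1 grey circle per gene called in ERaUtcKO, orange squares for the 56 genes that differ between the lines, and the dashed line at equal differences. Esr1, Rxfp1 and Akr1c14 lie below the dashed line, at larger falls in Ex3aERKO.

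Genes that E2 changes were taken from separate C57Bl6 wild-type mice (3 arrays per group), in which E2 at 24 h changed 10931 genes (36.3%), raising 19.6% and lowering 16.6% of all genes, and at 2 h 8935 (29.6%). Among the 726 genes that E2 lowered at least 2-fold at 24 h (2.41% of all genes), 85 were higher and 47 lower in ERaUtcKO under vehicle, with a median of 0.185. Among the 1454 it raised at least 2-fold at 24 h (4.82%), 23 were higher and 50 lower, with a median of -0.097. The genes lowered by E2 were called in 18.18%, and the raised genes in 5.02%, beside 4.17% of all genes and 5.06% of protein-coding genes. Of the genes that rose in ERaUtcKO, 14% were on the 24 h list of lowered genes and 3.8% on that of raised genes. Of the genes that fell, 7.2% were on the list of lowered genes and 7.7% on that of raised genes. These 2 lists held 2.41% and 4.82% of all genes, so falls were above the share of all genes on both. Coch (-3.12), Inmt (-3.76), Tgfbi (-3.51), Moxd1 (-2.39), Stc1 (-2.58), Hpgds (-2.61), Igfbp3 (-4.28) and Igf1r (-1.77) all rose in ERaUtcKO and were lowered by 24 h of E2 in the wild types, by the log2 differences in brackets. At 2 h, 55 of the 736 genes lowered at least 2-fold (2.44%) were higher and 45 lower, and 16 of the 949 raised genes (3.15%) were higher and 46 lower. Tnnt2 (1.48) and Bmp5 (0.67) were exceptions, higher both in ERaUtcKO and after 24 h of E2. Slc7a11 (0.52, limma adjusted p = 0.19), Rxfp1 (0.04, limma adjusted p = 0.893) and Cxcl15 (-0.42, limma adjusted p = 0.306), which were among the largest falls in ERaUtcKO, were not called after 24 h of E2.

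Genes next to the 2 engineered loci were checked over 20 neighbours on each side in RefSeq order, beside the 4.17% called of all genes tested. Of 39 measured neighbours of Esr1, 2 were called (5.13%): Ccdc170 (-0.60, limma adjusted p = 0.00108), next but one to Esr1, and Ginm1 (-0.43, lost without knockout array 1 or 2 or littermate array 1, limma adjusted p up to 0.14). Of 40 neighbours of Pgr, 5 were called (12.5%). Tmem123 was at 12.26, 12.30 and 12.63 in knockouts and at 10.85, 10.80 and 11.08 in littermates (1.49 ± 0.15, limma adjusted p = 2.38e-06), and it rose by 1.25 in Ex3aERKO too (limma adjusted p = 0.00539). Phxr4 (1.17), Maml2 (0.42), Mtmr2 (-0.37) and Sesn3, a stress-response gene that FOXO factors raise (-0.96), were the others, so the calls near Pgr went both ways. Without littermate array 1, adjusted p was 0.0514 for Maml2 and 0.0531 for Mtmr2. The count of 7 over both loci was 4 without littermate array 1 and 13 without littermate array 3.

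Markers of tissues beside the uterine wall were measured too. Of 9 liver genes none was called by limma, also at an unadjusted p under 0.05, although all 9 were higher on average in knockouts, with a median difference of 1.281. Alb, serum albumin, was at 10.99, 15.07 and 15.27 in the knockouts and at 13.30, 12.15 and 8.68 in the littermates (2.40, limma adjusted p = 0.344), with overlapping groups. The part of such RNA in other results was not tested. Pgr, Esr1 and the uterine stromal factor gene Hand2 were above 6.04, the 95th percentile of the control probe sets for random sequence, in all 6 arrays. No member of the ovary, mesothelium, adipocyte, skeletal muscle or keratinocyte lists was called by limma, and 3 of 9, 4 of 10, 0 of 13, 0 of 12 and 1 of 17 had an unadjusted p under 0.05. One member each was called of 9 oviduct and ciliated cell markers, Pax8 (0.76 ± 0.15, limma adjusted p = 0.00364), and of 10 nerve and glia markers, Ncam1 (1.31 ± 0.14, limma adjusted p = 2.61e-06), which encodes a cell adhesion molecule. Ncam1 was at 10.93, 10.84 and 10.70 against 9.46, 9.27 and 9.80, and both genes were higher in every knockout array and called under all 15 alternative settings.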

How the data were processed

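Affymetrix arrays of whole uterus were used. Labelling used the WT Plus kit, per the labels' protocols. The authors deposited one table of log2 intensities per probe set. They carry a normalization not given in the sources used here. The number of arrays limits the precision. Of 72688 probe sets, 30604 paired with 1 gene symbol in the platform annotation (2146 paired with several, 39938 were not listed), and the brightest probe set was kept for each of 30142 genes. Symbols were updated through RefSeq.

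The contrast ERaUtcKO minus WT littermates was fitted in limma 3.58.1 (R 4.3.3; lmFit and eBayes) over the 29 arrays of the mouse set, with 1 mean per group. Ex3aERKO (25 arrays) and the C57Bl6 wild types (14 arrays) were fitted in the same way, and the difference between the lines over the 54 arrays of both. On simulated data with 30142 genes, limma recovered 46.3%, 89.6% and 98.5% of genes changed by 0.5, 1 and 2 on the log2 scale in this contrast, with 7 unchanged genes called. The simulated noise was normal and independent between genes and arrays, with no effect shared across an array. These figures therefore do not give the error rate of the real contrast.

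Named genes are the 15 largest rises and falls among called genes of known name with non-overlapping arrays, a chosen group of ERα and IGF1 genes, up to 6 called members of each list (up to 2 where none was called), and called neighbours of Esr1 and Pgr. Genes outside that rule were chosen after their values were seen. The comparison, the members and the lists were chosen with earlier results of these data known. Alternatives were other scalings, variance models, array weights, a filter on dim genes, the mean of a gene's probe sets, a replicate block, the 6 arrays alone, and each array left out.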

Additional observations from a re-analysis of the deposited data

Results flagged for a closer look

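For 3 genes the genotype difference under vehicle differed between ERaUtcKO and Ex3aERKO in limma's test of the difference itself. The ERaUtcKO minus Ex3aERKO difference was 2.05 for Rxfp1 (limma adjusted p = 0.00369), 1.49 for Akr1c14 (limma adjusted p = 0.0449) and 1.19 for Esr1 (limma adjusted p = 0.00781). Each of the 3 fell in both lines and fell further in Ex3aERKO. The 2 lines also differ in their number of arrays, 3 per group and 2 per group.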

How the results depend on the processing

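The number of genes called under vehicle (1258) was within 1.5 times under array weights, median centring, quantile normalization, the filter on dim genes, the trended variance, the mean of probe sets and the replicate block over all arrays (1082). It was 445 when the variance came from the 6 vehicle arrays alone, of which 382 were among the 1258. The replicate numbers did not pair the arrays (correlation of same-numbered deviations 0.046, 0.078 and -0.132), and with the replicate block on those 6 arrays 278 were called. Without 1 array it ranged from 627 to 2083. The count that differed between ERaUtcKO and Ex3aERKO (56) was 264 with array weights, 34 after centring, 110 after quantile normalization, 34 with the replicate block, and 5 to 167 without 1 array. With array weights 877 genes were called at 2 h of IGF1 (994 to 2211 without 1 array) and 1552 in Ex3aERKO under vehicle (165 to 770). Without 1 array the count at 24 h of IGF1 ranged from 645 to 1004. Of the 79 listed genes called, 36 were called with the replicate block on 6 arrays and 47 to 80 without 1 array. Of the 7 neighbours, 4 were called on the 6 arrays alone, 3 with the replicate block there, and 4 to 13 without 1 array. Of 120 named genes called, 65 were called without any 1 array and 49 under all 15 settings, and no called gene changed sign. The causes of these changes were not tested. Array number and signal over background limit what could be called: 125 of the 651 falls were at or under the level of the control probes.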

Other observations

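Small nucleolar RNA genes, whose products guide the chemical modification of ribosomal RNA, were a large share of the strong falls, as seen after their values were known. Of 955 measured, 42 (4.4%) fell and 11 rose, and 26 of the 110 genes that fell at least 2-fold (23.6%) were of this class, which makes up 3.17% of genes tested. Gm23201 was at 8.58, 7.61 and 8.43 in ERaUtcKO and at 11.05, 10.76 and 9.97 in littermates (-2.39 ± 0.26, limma adjusted p = 5.48e-06). Snora16a was at 8.68, 8.87 and 9.69 against 11.13, 11.39 and 11.75 (-2.34 ± 0.44, limma adjusted p = 0.00237). In both genes the groups were apart. Of the 42, 8 were called lower under all 4 hormone treatments and 2 in Ex3aERKO under vehicle.

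The SPEER4 genes, a family of near-identical copies best known from the testis, rose in 4 of 7 measured members. Speer4e was at 10.50, 10.17 and 10.63 in ERaUtcKO and at 9.04, 9.13 and 8.98 in littermates (1.38 ± 0.23, limma adjusted p = 0.000939), and Speer4c (1.30), Speer4d (1.16) and Speer8-ps1 (1.37) rose as well. Speer4e differed by 4.06 at 24 h of E2 and by 0.27 at 24 h of IGF1, and by 0.52 in Ex3aERKO (limma adjusted p = 0.764). Of 600 microRNA genes 7 rose (1.17%) and 4 fell (0.667%), both under the shares of all genes tested, 2.01% and 2.16%. Mir681 (1.45) and Mir3058 (1.25) were among the rises. Mir681 lost its call without knockout array 1 or 2 or littermate array 1 or 2 (limma adjusted p up to 0.119).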
